A study of Mus musculus with 6 samples.

Results

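The Ikaros zinc finger family was examined in RNA-seq libraries of cultured CD4 T cells. Its members were taken by name and are the 5 genes *Ikzf1* to *Ikzf5* of the 56748 genes listed in the deposited table. The study asked how an antisense oligonucleotide (ASO), a short synthetic strand that binds a matching RNA, directed at phosphoglycerate mutase (PGAM) affects the differentiation of regulatory T cells (Tregs). Naïve CD4 T cells were obtained by negative selection from spleen and lymph nodes of wild-type C57BL/6 mice, 6 to 10 weeks old, and are labelled splenocytes. All cultures received plate-bound anti-CD3, soluble anti-CD28, IL-2, TGF-β, anti-IFNγ and anti-IL-4. They were kept in these Treg polarizing conditions for 3 days with either a scrambled ASO, the control, or a *Pgam* ASO, and were not sorted before RNA extraction. Each group had 3 libraries, described as biological replicates in the study. The labels do not say whether these were separate animals or cultures, so p-values measure the spread between samples.

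Ikaros proteins bind DNA through zinc fingers near the start of the protein and pair with one another through zinc fingers near its end. In lymphocytes they bring corepressors and chromatin remodelers, among them the NuRD complex, to the genes they bind, and they are known regulators of lymphocyte development. Ikaros (*Ikzf1*) is the founding member, Aiolos (*Ikzf3*) is best known from B cells and Th17 cells, Helios (*Ikzf2*) and Eos (*Ikzf4*) from Tregs, and Pegasus (*Ikzf5*) is the most distant relative.

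How closely the members are related also sets whether reads can be told apart, so the coding stretch of the second zinc finger is shown for each. The stretches run 5′ to 3′ on the coding strand and come from the annotated transcript with the longest coding sequence (GENCODE M21, GRCm38). Capitals mark the codons of the cysteines and histidines that hold the zinc ion.
Ikzf1: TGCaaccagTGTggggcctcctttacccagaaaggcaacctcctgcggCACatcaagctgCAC
Ikzf2: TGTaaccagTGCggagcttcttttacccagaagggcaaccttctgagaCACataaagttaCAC
Ikzf3: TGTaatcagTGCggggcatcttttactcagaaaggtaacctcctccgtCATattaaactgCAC
Ikzf4: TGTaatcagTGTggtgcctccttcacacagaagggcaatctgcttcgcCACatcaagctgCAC
Ikzf5: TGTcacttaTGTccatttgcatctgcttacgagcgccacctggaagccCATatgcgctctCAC

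These stretches lie within single coding exons, at chr11:11754024-11754086 on the plus strand (*Ikzf1*, exon 6 of 9) and, on the minus strand, at chr1:69570581-69570643 (*Ikzf2*, exon 5 of 8), chr11:98488940-98489002 (*Ikzf3*, exon 5 of 8), chr10:128640229-128640291 (*Ikzf4*, exon 5 of 9) and chr7:131392501-131392563 (*Ikzf5*, exon 4 of 4). Against *Ikzf1*, *Ikzf4* differed at 10 of the 63 bases, *Ikzf2* and *Ikzf3* at 12 each, and *Ikzf5* at 37. *Ikzf1* to *Ikzf4* were thus 76.2% to 84.1% identical in this finger. *Ikzf5* was 41.3% to 47.6% identical to the others, a share like that between the second and the other 5 fingers within *Ikzf1* itself, 39.7% to 49.2%. A search by codon pattern found 6 such fingers in *Ikzf1*, *Ikzf2* and *Ikzf3* and 5 in *Ikzf4* and *Ikzf5*. Fingers were numbered by their order within each gene and were not aligned. Whether the second finger of *Ikzf5* is the counterpart of the second finger of the others is thus not established. Its lower identity is therefore no measure of how closely *Ikzf5* is related to them.

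Despite the related fingers, the members hardly share the 31-base stretches that Kallisto, the program behind the deposited counts, uses by default to assign reads. The longest exact run common to a pair of members was 32 bases, between *Ikzf2* and *Ikzf4*. These 2 genes had 3 such stretches in common, and the other pairs none. With genes outside the family, none of the 5833 stretches of *Ikzf1* was shared, 1 of 8722 of *Ikzf3*, 132 of 11745 of *Ikzf2* and 57 of 6118 of *Ikzf4*. *Ikzf5* was the exception, with 4775 of 5776 stretches (82.7%) shared, 4595 of them with *Pstk*, a gene on the opposite strand that overlaps it by 5831 bases. The sources do not state whether counting used strand, so reads of *Ikzf5* and *Pstk* may not be told apart, and values of *Ikzf5* are uncertain for this reason.

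Replicates 1, 2 and 3 held 17588755, 18032805 and 16231127 counts under the scrambled ASO label, and 16589933, 15860476 and 16803881 counts under the *Pgam* ASO label. Expression is given as CPM, counts corrected for library size, after TMM scaling in edgeR, and the values of single libraries are in the order of replicates 1, 2 and 3. The ASO's targets were examined first. *Pgam1*, which encodes the main PGAM enzyme of most cells, was at 599.6, 478 and 707 CPM with the scrambled label and at 658, 661 and 707 CPM with the *Pgam* label. *Pgam2*, which encodes the muscle form, was at 5.23, 6.75 and 2.85 CPM in the scrambled group and at 2.98, 2.69 and 2.60 CPM in the *Pgam* group. The groups overlapped for both genes, and neither passed the quasi-likelihood test of edgeR at an adjusted p under 0.05 (Benjamini-Hochberg adjusted p = 0.331 for *Pgam1* and 0.0854 for *Pgam2*). *Pgam2* was called lower when scrambled replicate 3 was left out (edgeR adjusted p = 0.0144) or no filter on low counts was used (0.0292). The RNA of the targets thus did not settle the labels, protein was not measured in these libraries, and the groups are called here by their labels.

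Per length, *Ikzf1* was the most abundant member in both groups. *Ikzf5* was the least as counted, a place that holds only if its reads were rightly divided from those of *Pstk*, which had 216 to 297 counts in a library. Levels were divided by the mean length of each gene's annotated protein-coding transcripts to give CPM per kilobase. In the libraries labelled scrambled ASO these levels were 245 ± 16.9 (SD, n = 3) for *Ikzf1*, 37.0 ± 0.566 for *Ikzf4*, 27.7 ± 11.7 for *Ikzf3*, 7.92 ± 0.747 for *Ikzf2* and 2.21 ± 0.564 for *Ikzf5*. The ranges of *Ikzf4* and *Ikzf3* overlapped, while all other neighbours in that order were separated. In the libraries labelled *Pgam* ASO the levels were 212 ± 9.83 CPM per kilobase (SD, n = 3) for *Ikzf1*, 32.0 ± 1.89 for *Ikzf4*, 5.35 ± 1.23 for *Ikzf2*, 4.76 ± 1.44 for *Ikzf3* and 2.34 ± 0.457 for *Ikzf5*. Here *Ikzf3* stood beside *Ikzf2*, with overlapping ranges, instead of beside *Ikzf4*. Their order depended on the length used, since with the longest annotated transcript or the merged exons of each gene *Ikzf3* lay above *Ikzf2* in each group without overlap. With merged exons *Ikzf4* and *Ikzf3* were separated in the scrambled group as well, at no less than 20.4 and no more than 16.8 CPM per kilobase. The level of *Ikzf3* made up 8.49% ± 2.92 (SD, n = 3) of the family's summed level per length in the scrambled group and 1.84% ± 0.464 (SD, n = 3) in the *Pgam* group. These shares depend on the length used, and were 14.2% and 3.23% with the longest annotated transcript and 8.98% and 1.95% with the merged exons.

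**Figure D1:**
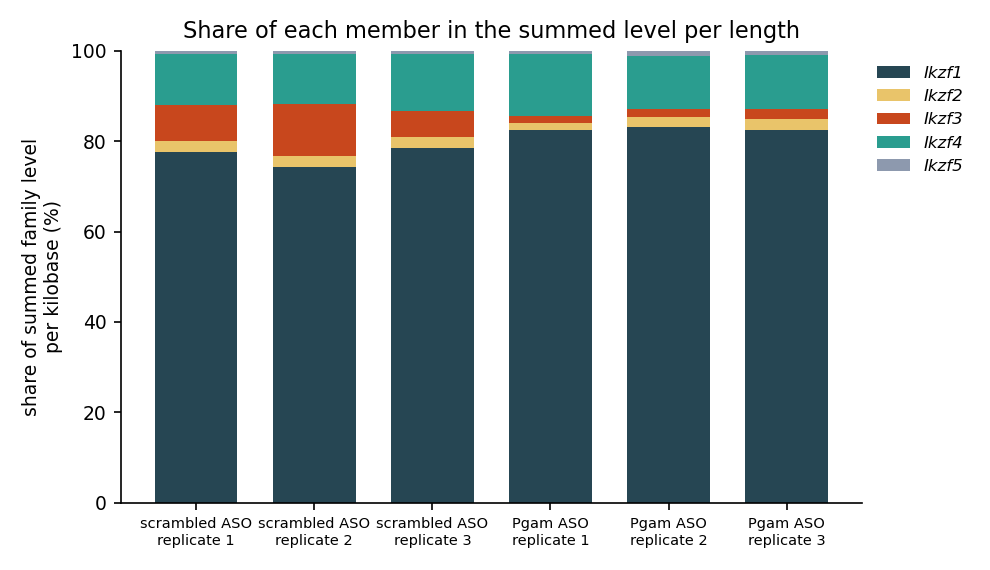
Share of each member in the family's summed level per kilobase (percent, y axis) in each of the 6 libraries (x axis), using the mean length of annotated protein-coding transcripts. *Ikzf1* held most of the level in every library, and the *Ikzf3* band was wider in the libraries labelled scrambled ASO (mean 8.49%) than with the *Pgam* label (mean 1.84%).

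Between the groups, *Ikzf3* and *Ikzf2* passed the test, both lower with the *Pgam* label. This made 2 of the 5 members, all of which passed the filter on low counts, and DESeq2 and limma-voom also called 2. Means of *Ikzf1* to *Ikzf4* were lower with the *Pgam* label, and that of *Ikzf5* was not, under TMM, library-size and median-of-ratios scaling alike. The direction of *Ikzf5* was not stable, at log2 fold changes of -0.056 without scrambled replicate 3 and -0.053 without *Pgam* replicate 2. Among the 14936 genes tested, 2565 (17.2%) passed in either direction and 1366 (9.15%) were lower, so a count of 2 in 5 members is small and says little about the family as a whole. For 4 of 5 members the groups did not overlap in CPM, which also held for 39.5% of tested genes. With 1 library left out in turn, the number of genes called ran from 391 without *Pgam* replicate 2 to 3484 without scrambled replicate 3, and it was 620 without scrambled replicate 1, 871 without *Pgam* replicate 1 and 1256 without scrambled replicate 2. The median log2 fold change was -0.21 over the members and -0.01 over all tested genes. In bulk samples, fewer cells that express a gene and less of its RNA per cell cannot be told apart.

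*Ikzf1*, the founding member, lies at chr11:11685003-11772926 on the plus strand. Its expression was 549.7, 555 and 489 CPM with the scrambled label, and 441, 456 and 483 CPM with the *Pgam* label. All scrambled libraries lay above all *Pgam* libraries, but the nearest values, 489 and 483 CPM, were almost equal. The group means were 531 ± 36.6 and 459.9 ± 21.3 CPM (SD, n = 3 each). The log2 fold change of the *Pgam* over the scrambled group was -0.21 (95% confidence interval -0.40 to -0.02), and *Ikzf1* did not pass in edgeR (adjusted p = 0.108).

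*Ikzf3* encodes Aiolos, which is known to repress *Il2* in Th17 cells, and lies at chr11:98464902-98546031 on the minus strand. Its counts were 1711, 2717 and 990 with the scrambled label, and 213, 244 and 394 with the *Pgam* label. In CPM these were 96.3, 147 and 61.3 against 13.2, 15.7 and 23.3. The lowest scrambled library was 2.63-fold above the highest *Pgam* library. *Ikzf3* also varied more within a group than the other members, by 2.39-fold from the lowest to the highest scrambled library. Mean expression was 101 ± 42.9 CPM against 17.4 ± 5.26 CPM (SD, n = 3 each), which is 5.83-fold lower with the *Pgam* label in the fitted comparison. The log2 fold change was -2.54 (95% confidence interval -3.46 to -1.62, edgeR adjusted p = 0.0122). Of the 14936 tested genes, 58 had a lower log2 fold change. Without *Pgam* replicate 2 the call of *Ikzf3* was lost (log2 fold change -2.47, edgeR adjusted p = 0.0602), and it held without any of the other 5 libraries.

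**Figure D2:**
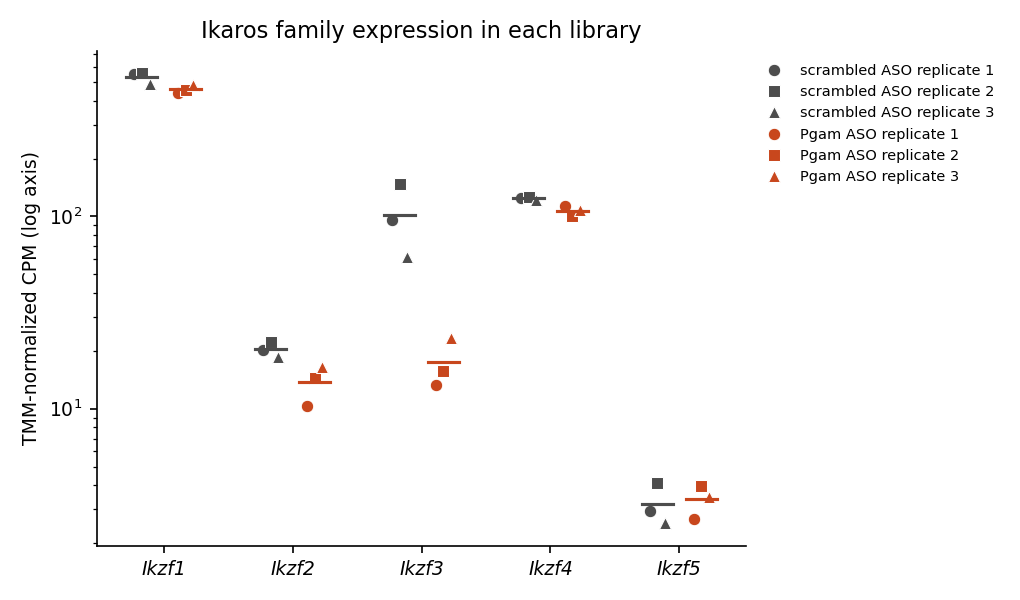
TMM-normalized CPM (y axis, log scale) of the 5 members (x axis) in each library, with marker shapes for replicates and short lines for group means. The *Ikzf3* values of the libraries labelled scrambled ASO (61.3 to 147 CPM) lie well above those labelled *Pgam* ASO (13.2 to 23.3 CPM), whereas the *Ikzf5* groups overlap.

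*Ikzf2* encodes Helios, a marker of many Tregs, and lies at chr1:69531214-69687245 on the minus strand. Its expression was low, at 20.2, 22.4 and 18.5 CPM with the scrambled label and 10.3, 14.4 and 16.6 CPM with the *Pgam* label. All *Pgam* libraries were below all scrambled libraries, with *Pgam* replicate 1 the lowest. Means were 20.4 ± 1.92 and 13.8 ± 3.17 CPM (SD, n = 3 each). The log2 fold change was -0.57 (95% confidence interval -0.95 to -0.18), and the edgeR adjusted p of 0.0484 was just under the threshold of 0.05. This call was lost without scrambled replicate 1 (edgeR adjusted p = 0.126), scrambled replicate 2 (0.124), *Pgam* replicate 1 (0.130) or *Pgam* replicate 2 (0.139).

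*Ikzf4* encodes Eos, which acts with Foxp3 to silence genes in Tregs, and lies at chr10:128630843-128645991 on the minus strand. It was measured at 124, 126 and 122 CPM with the scrambled label, and at 113, 101 and 108 CPM with the *Pgam* label. The scrambled libraries were nearly alike, and all 3 were above the *Pgam* libraries. Means were 124 ± 1.90 and 107 ± 6.34 CPM (SD, n = 3 each). The log2 fold change of -0.21 (95% confidence interval -0.39 to -0.03) did not pass in edgeR (adjusted p = 0.0922).

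*Ikzf5*, which encodes Pegasus, lies at chr7:131388652-131410521 on the minus strand and was counted only 41 to 76 times in a library. Its expression was 2.93, 4.10 and 2.54 CPM with the scrambled label and 2.67, 3.98 and 3.49 CPM with the *Pgam* label. The groups overlapped throughout, with replicate 2 the highest in each. The log2 fold change was 0.08 (95% confidence interval -0.54 to 0.69, edgeR adjusted p = 0.867), an interval too wide to show a change of the size seen for *Ikzf1* or *Ikzf4*. *Pstk*, the overlapping gene, was higher by 0.06 on the log2 scale without passing (edgeR adjusted p = 0.770).

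**Figure D3:**
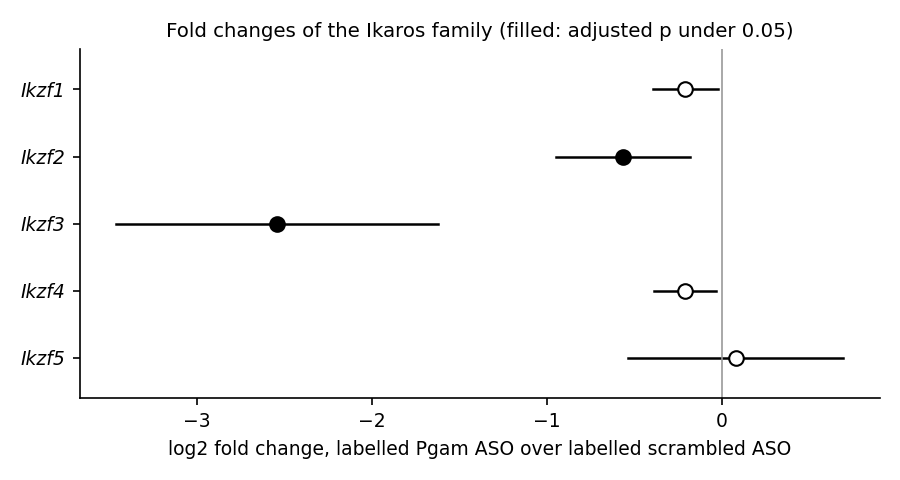
Log2 fold change of the libraries labelled *Pgam* ASO over those labelled scrambled ASO (x axis) for each member (y axis), with lines for 95% confidence intervals and filled points for an adjusted p under 0.05 in edgeR. *Ikzf3* (-2.54) lies far to the left of *Ikzf2* (-0.57), *Ikzf1* and *Ikzf4* (-0.21 each), and the interval of *Ikzf5* spans 0.

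To compare the members with each other, the log2 ratio of their counts was taken within each library, which needs no scaling between libraries. All 10 pairs were compared by two-sided exact permutation tests, for which 3 against 3 libraries allow no p below 0.1, so no pair could pass 0.05. *Ikzf1* over *Ikzf3* was at log2 ratios of 2.51, 1.92 and 2.995 with the scrambled label and 5.05, 4.86 and 4.37 with the *Pgam* label. The groups were clearly separated, and the balance moved by 4.88-fold away from *Ikzf3* (exact permutation p = 0.1, adjusted p = 0.167 over 10 pairs). *Ikzf3* over *Ikzf4* differed by -2.28 on the log2 scale, *Ikzf2* over *Ikzf3* by 1.91 and *Ikzf3* over *Ikzf5* by -2.59, again without overlap of the groups (each exact permutation p = 0.1, adjusted p = 0.167). *Ikzf1* over *Ikzf2* differed by 0.38 (0.22 to 0.49 with 1 library left out in turn) and *Ikzf2* over *Ikzf5* by -0.68, without overlap and with the same exact permutation p of 0.1. The 4 pairs among *Ikzf1*, *Ikzf4* and *Ikzf5* or between *Ikzf2* and *Ikzf4* overlapped between the groups.

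The ratio of *Ikzf1* to *Ikzf4* had the smallest difference between the groups. Its log2 values lay between 1.96 and 2.18 in all 6 libraries, with a difference of 0.0034 between group means (exact permutation p = 1.0), and the groups overlapped.

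**Figure D4:**
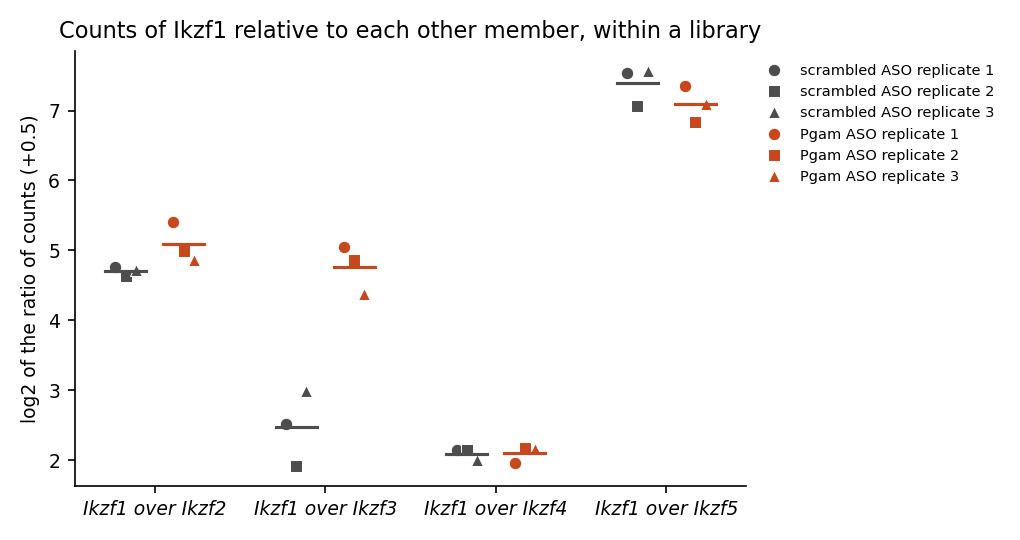
Log2 ratio of *Ikzf1* counts to those of each other member within a library (y axis, 0.5 added to each count), by pair (x axis), with marker shapes for replicates and lines for group means. *Ikzf1* over *Ikzf3* lies between 1.92 and 2.995 with the scrambled label and between 4.37 and 5.05 with the *Pgam* label, while *Ikzf1* over *Ikzf4* lies between 1.96 and 2.18 in all 6 libraries.

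The genes on both sides of *Ikzf3* were lower as well. *Grb7*, which encodes an adaptor protein of receptor tyrosine kinases, lies 9529 bases away on one side, and *Zpbp2*, known from sperm, 5066 bases away on the other. *Grb7* was at 7.15, 13.7 and 6.01 CPM with the scrambled label and at 0.497, 1.15 and 1.54 CPM with the *Pgam* label. *Zpbp2* was at 2.25, 2.48 and 1.30 CPM in the scrambled libraries and at 0, 0.321 and 0.651 CPM in the *Pgam* libraries. For both genes the groups were separated, and as for *Ikzf3* scrambled replicate 2 was the highest library and *Pgam* replicate 1 the lowest. The log2 fold changes in edgeR's quasi-likelihood test were -3.06 (standard error 0.43, adjusted p = 0.00316) for *Grb7* and -2.60 (standard error 0.66, adjusted p = 0.0283) for *Zpbp2*. *Grb7* passed with each library left out in turn, while *Zpbp2*, counted at most 46 times in a library, did not pass without scrambled replicate 1 (adjusted p = 0.0906), scrambled replicate 2 (0.0697) or *Pgam* replicate 2 (0.119) in edgeR. Neither gene had a 31-base stretch in common with *Ikzf3*.

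Wider windows were looked at after these values had been seen. Within 200 kb of *Ikzf3*, 11 protein-coding genes were tested, of which 3 fell and 1 rose, where 17.2% of all tested genes passed and 9.15% were lower. The third that fell was *Ormdl3*, a regulator of sphingolipid synthesis 35225 bases from *Ikzf3*, which fell by 0.82 on the log2 scale (edgeR adjusted p = 0.0109, or 0.0622 without *Pgam* replicate 2). *Psmd3*, a proteasome subunit, rose by 0.45 on the log2 scale (edgeR adjusted p = 0.0275), but not without scrambled replicate 1 (0.0913), scrambled replicate 2 (0.0593), *Pgam* replicate 1 (0.0970) or *Pgam* replicate 2 (0.114). Around *Ikzf4*, 4 of 20 tested genes within the same distance were lower and 3 higher, around *Ikzf1* 1 of 4 was lower and 1 higher, and around *Ikzf5* 1 of 5 was lower and 3 higher. With so few genes, and with calls around *Ikzf1*, *Ikzf4* and *Ikzf5* as well, these counts say nothing particular about the region of *Ikzf3*. Some called genes of the other windows, named after their values were seen, changed more than *Ormdl3*, among them *Grb10* near *Ikzf1* and *Pmel* and *Dgka* near *Ikzf4*. Their log2 fold changes were -2.36, -1.70 and -1.31 (edgeR adjusted p = 0.00264, 0.0250 and 0.00835). *Pmel* did not pass without scrambled replicate 1 (edgeR adjusted p = 0.0552), *Pgam* replicate 1 (0.10004) or *Pgam* replicate 2 (0.110). No gene within that distance of *Ikzf2* was tested.

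**Figure D5:**
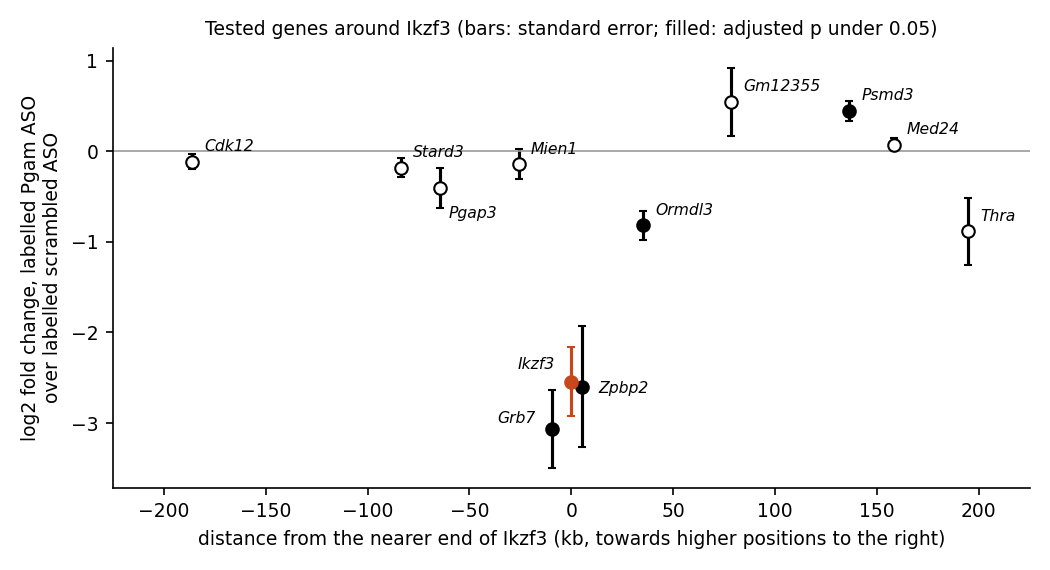
Log2 fold change (y axis, bars are standard errors) of the tested protein-coding genes within 200 kb of *Ikzf3*, by distance in kb from its nearer end (x axis), with *Ikzf3* in red at 0 and filled points for an adjusted p under 0.05 in edgeR. *Grb7* (-3.06), *Ikzf3* (-2.54) and *Zpbp2* (-2.60), which lie side by side, are far below the remaining genes.

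The nearest tested neighbours of the other members were examined in the same way. *Fignl1* beside *Ikzf1* was higher by 0.39 on the log2 scale (edgeR adjusted p = 0.0312), whereas *Spata48* on its other side was not called. *Lancl1*, the nearest tested on one side of *Ikzf2* but 2492342 bases away, was lower by -0.53 (edgeR adjusted p = 0.0187), and *Bard1*, 1340253 bases away on the other side, was not called at 0.31 (0.0614, or 0.0325 without scrambled replicate 3 and 0.0375 with no filter on low counts). *Rps26* and *Suox* beside *Ikzf4* had log2 fold changes of 0.05 and -0.10 and were not called. *Acadsb*, which lies 80 bases from *Ikzf5*, was lower by -0.52 (edgeR adjusted p = 0.0178), on the side opposite to *Pstk*. Without *Pgam* replicate 2 none of these 3 genes passed in edgeR (adjusted p = 0.137 for *Fignl1*, 0.0967 for *Lancl1* and 0.0754 for *Acadsb*). Without *Pgam* replicate 1 the edgeR adjusted p was 0.0714, 0.0655 and 0.0624, without scrambled replicate 1 it was 0.0950 for *Fignl1* and 0.0605 for *Lancl1*, and without scrambled replicate 2 it was 0.0664 for *Fignl1*.

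The genes whose pattern over the 6 libraries was most like that of a called member were sought by the root mean square difference of centred log2 CPM among 12050 genes. For *Ikzf3* they were *Sntb1* (difference 0.12), *Atp1b1* (0.15) and *Arl5c* (0.21), which had log2 fold changes of -2.75, -2.32 and -2.54 and passed (edgeR adjusted p = 0.00641, 0.00592 and 0.0271). The call of *Arl5c* was lost with no filter on low counts (edgeR adjusted p = 0.0850) and without scrambled replicate 1 (0.0759), scrambled replicate 2 (0.0749), *Pgam* replicate 1 (0.0691) or *Pgam* replicate 2 (0.102). For *Ikzf2* they were *Xpa* (0.04), *Zfp688* (0.06) and *Dtx3l* (0.06), with log2 fold changes of -0.53, -0.48 and -0.49, and none of these 3 passed (edgeR adjusted p = 0.0598, 0.0833 and 0.0623), although all 3 did without *Pgam* replicate 3 (0.0292, 0.0273 and 0.0133), and *Xpa* and *Dtx3l* without scrambled replicate 3 (0.0489 and 0.0445). The measure follows the difference between the groups as well as the spread within them.

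Corepressor and chromatin partners of Ikaros proteins all passed the filter on low counts. Of 20 such genes 3 rose and 1 fell, with a median log2 fold change of 0.18 against -0.01 over all tested genes. The share called, 20%, is near the 17.2% of all tested genes and so is no result about this list. *Mbd3*, a NuRD subunit, rose to 142 ± 15.4 CPM from 94.8, 82.8 and 119 CPM in the scrambled libraries, and *Rbbp7*, a histone-binding NuRD subunit, from 323 ± 40.4 to 421 ± 13.5 CPM (SD, n = 3; edgeR adjusted p = 0.0283 and 0.0290). *Ctbp2*, a corepressor that Ikaros proteins bind, rose from 2.08 ± 0.893 to 6.38 ± 1.98 CPM (edgeR adjusted p = 0.0162). *Mta3*, a NuRD subunit, fell from 83.2 ± 4.55 to 68.2 ± 2.69 CPM (edgeR adjusted p = 0.0414). *Chd4*, the NuRD helicase and the most abundant gene of the list in CPM, was at 915 and 844 CPM with overlapping groups and an adjusted p of 0.317 in edgeR. None of the 4 calls held with every library left out in turn, and the number called was 0 without scrambled replicate 1, *Pgam* replicate 1 or *Pgam* replicate 2, 1 without scrambled replicate 2, 6 without scrambled replicate 3 and 5 without *Pgam* replicate 3.

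Genes whose products act on Ikaros proteins were followed next. Cereblon (*Crbn*) is the part of a ubiquitin ligase that lenalidomide directs to Ikaros and Aiolos in human cells, casein kinase 2 phosphorylates Ikaros, and protein phosphatase 1 reverses this. Of 11 such genes 2 passed, both higher, which at 18.2% is near the 17.2% of all tested genes and so is no result about this list. They were *Rbx1*, a subunit of the ligase, at 80.2 ± 9.88 against 103 ± 3.08 CPM, and *Ppp1ca*, a catalytic subunit of the phosphatase, at 420 ± 22.5 against 512 ± 16.5 CPM (SD, n = 3; edgeR adjusted p = 0.0326 and 0.0352). *Crbn* itself was at 63.5, 73.6 and 51.9 CPM in the scrambled libraries and 42.2, 49.7 and 50.0 CPM in the *Pgam* libraries, a separation that did not pass (log2 fold change -0.41, edgeR adjusted p = 0.0537, or 0.0125 without scrambled replicate 3). None of the 11 passed without scrambled replicate 1, scrambled replicate 2, *Pgam* replicate 1 or *Pgam* replicate 2, whereas 4 passed without scrambled replicate 3 and 3 without *Pgam* replicate 3.

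Genes described as bound or controlled by Ikaros proteins moved in both directions. Of 15 listed, 11 passed the filter on low counts, and of these 2 rose and 2 fell (36.4%, against 17.2% of all tested genes). *Il2*, described as a target of Aiolos, was at 2.42, 0.864 and 1.30 CPM with the scrambled label and at 30.5, 17.3 and 12.1 CPM with the *Pgam* label. *Dntt*, the DNA polymerase that adds bases at antigen receptor joints, was at 13.2, 15.3 and 11.9 CPM in the scrambled libraries and at 0.870, 1.28 and 2.07 CPM in the *Pgam* libraries. Both genes were widely separated, in opposite directions, and both passed with each library left out in turn. The log2 fold changes were 3.70 (standard error 0.46, adjusted p = 0.00335) for *Il2* and -3.24 (standard error 0.28, adjusted p = 0.000395) for *Dntt* in edgeR's quasi-likelihood test. *Bcl2*, a survival factor, rose from 169 ± 16.2 to 255 ± 63.6 CPM, and *Bcl6*, a repressor that directs follicular helper T cells, fell from 14.0 ± 5.93 to 3.58 ± 1.89 CPM (SD, n = 3; edgeR adjusted p = 0.0419 and 0.0220). *Bcl6* was not called without scrambled replicate 1 (edgeR adjusted p = 0.0672), scrambled replicate 2 (0.0527), *Pgam* replicate 1 (0.0614) or *Pgam* replicate 2 (0.0949), nor *Bcl2* without scrambled replicate 1 (0.1203), scrambled replicate 2 (0.187), *Pgam* replicate 2 (0.133), *Pgam* replicate 3 (0.0635) or with scaling by library size (0.0616). The other 7 tested did not pass, among them *Prdm1*, *Ifng* and *Il10* at log2 fold changes of -0.70, 1.47 and 0.38 (edgeR adjusted p = 0.0955, 0.0953 and 0.493), though *Ifng* did without *Pgam* replicate 3 (0.0246). With 1 library left out these values ran from -0.90 to -0.53, from 0.89 to 1.82 and from 0.15 to 0.66. *Ptcra* and *Igll1* had no count in any library, and *Hes1* and *Vpreb1* fewer than the filter required.

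Genes listed as upstream of *Ikzf3* in Th17 cells were lower where they were called. Of 11 such genes, 4 passed, all lower (36.4%, against 9.15% of all tested genes called lower), at a median log2 fold change of -0.34 over the list and -0.01 over all tested genes. The list is too short to read more from this. *Tgfbr1* fell from 111 ± 4.12 to 78.2 ± 7.44 CPM and *Tgfbr2*, the other chain of the TGF-β receptor, from 125 ± 22.3 to 87.6 ± 9.19 CPM (SD, n = 3; edgeR adjusted p = 0.00867 and 0.0291). *Il6ra*, the IL-6 receptor, fell from 128 ± 33.4 to 72.7 ± 5.24 CPM, and *Smad4*, which carries the TGF-β signal to DNA, from 80.8 ± 10.7 to 64.0 ± 1.08 CPM (edgeR adjusted p = 0.0176 and 0.0472). *Il6st*, the shared chain of the IL-6 receptor, had the list's greatest change at a log2 fold change of -1.68 and just missed the threshold (edgeR adjusted p = 0.0502). It passed without scrambled replicate 3 (0.0407) or *Pgam* replicate 3 (0.0180) and under several other settings. *Stat3*, which IL-6 activates, and *Il21r* had overlapping groups, at adjusted p of 0.529 and 0.453 in edgeR. *Ahr*, with *Stat3* an activator of *Ikzf3* in Th17 cells, was at 3.67 and 2.07 CPM without passing (edgeR adjusted p = 0.0839). None of the 4 calls held with every library left out in turn. The number called was 0 without scrambled replicate 1, 1 without *Pgam* replicate 1 or *Pgam* replicate 2, 2 without scrambled replicate 2, 5 without scrambled replicate 3 and 4 without *Pgam* replicate 3.

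The labelled cell type was checked with marker genes, whose calls are to be read beside the 17.2% of all tested genes that passed. All 8 T cell markers were expressed, *Cd4* at 770.3 ± 36.2 and 666 ± 26.6 CPM in the scrambled and *Pgam* groups (SD, n = 3). Their sums were 3134, 3368 and 2930 CPM with the scrambled label and 2518, 2547 and 2672 CPM with the *Pgam* label, and *Cd28*, *Cd5* and *Trac* were called lower. Of 7 Treg markers, *Foxp3* and *Nrp1* were lower and *Il2ra*, the most abundant, higher. Their sums were 3284, 3171 and 3554 CPM with the scrambled label and 3888, 3949 and 3607 CPM with the *Pgam* label. Most of this was *Il2ra*, at 1946, 1627 and 2216 CPM against 2908, 2900 and 2495 CPM, so the sums follow that gene. Of the 7 Treg markers, 6 had a negative log2 fold change and 1 a positive one. Their median was -0.31, against -0.01 over all tested genes. *Foxp3*, the defining factor of Tregs, was at 282, 371 and 222 CPM with the scrambled label and at 89.7, 109 and 131 CPM with the *Pgam* label. It followed the same order of libraries as *Ikzf3*, and its log2 fold change was -1.41 (edgeR adjusted p = 0.00567).

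Several markers of naïve T cells were lower too. Of 6 such genes 4 fell, namely *Ccr7*, *Il7r*, *Tcf7* and *S1pr1*, and the median log2 fold change was -1.14. *Tcf7* did not pass with no filter on low counts (edgeR adjusted p = 0.1196), nor *S1pr1* with scaling by library size (0.0593). Their summed expression was 1835, 2287 and 1699 CPM with the scrambled label and 672, 742 and 939.9 CPM with the *Pgam* label. Scrambled replicate 2 was the highest and *Pgam* replicate 1 the lowest, as for *Ikzf3*. The most abundant, *Ccr7*, was highest in scrambled replicate 3 instead, with 802, 819 and 888 CPM in the scrambled libraries and 202, 212 and 273 CPM in the *Pgam* libraries. *Klf2* and *Lef1* did not pass (edgeR adjusted p = 0.0888 and 0.266), though *Klf2* did without *Pgam* replicate 3 (0.0148), and none of the 6 was at 0. Their part in the lower *Ikzf3* level was not tested.

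Markers of B cells, which are known for high Aiolos levels, were low apart from *Ighm*, an immunoglobulin heavy chain gene. Of 9 such genes 7 were tested, and *Ighm* and *Ighd* fell, *Ighm* not with no filter on low counts (edgeR adjusted p = 0.106). The list summed to 342, 474 and 234 CPM with the scrambled label and to 89.5, 123 and 154 CPM with the *Pgam* label, which was again the order of *Ikzf3*. Nearly all of this was *Ighm*, the most abundant, at 320, 447 and 216 CPM against 75.6, 111 and 142 CPM. The defining markers were low, with *Ms4a1* at 0.969 and 0.843 CPM on average in the scrambled and *Pgam* groups. In the same order *Cd79a* was at 3.96 and 1.92 CPM, *Cd79b* at 2.18 and 1.85, *Ebf1* at 4.89 and 2.83 and *Pax5* at 1.03 and 1.77. *Cd22* (0.131 and 0.471 CPM) and *Blk* (0.256 and 0.584 CPM) were not tested. Of the 7 tested genes 6 had a negative log2 fold change and 1 a positive one, with a median of -0.79. None of the 9 was at 0 in all libraries. The part of B cell markers in the lower *Ikzf3* level was not tested.

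NK cell markers summed to 60.3, 44.1 and 60.6 CPM with the scrambled label and to 35.1, 32.2 and 28.5 CPM with the *Pgam* label. Most of this was *Eomes*, which T cells also express, and *Eomes* and *Klrd1* were the 2 of 3 tested that fell, while *Klrk1*, the third, was at 0.83 on the log2 scale without passing (edgeR adjusted p = 0.0968, or 0.0258 without *Pgam* replicate 3 and 0.0478 with no filter on low counts). *Klrb1c* had no count, and *Ncr1* at most 2 in a library. Sums of the remaining lists were small or rested on genes of broad expression. CD8 T cell markers summed to 11.9 ± 1.43 and 13.7 ± 2.50 CPM (SD, n = 3), with *Cd8a* higher and the more abundant *Cd8b1* not called (log2 fold change -0.20). Mast cell and basophil markers summed to 7.29 ± 0.417 and 6.64 ± 0.652 CPM, with *Kit* lower and *Gata2* higher. *Cpa3*, at 1.07 and 2.31 CPM, did not pass (log2 fold change 1.09, edgeR adjusted p = 0.0526). *Mcpt8* (0.0980 and 0.665 CPM) and *Fcer1a* (0.0360 and 0.372 CPM) were not tested, and for all 3 genes the *Pgam* libraries lay above the scrambled libraries. Myeloid markers summed to 4.37 ± 1.51 and 5.47 ± 0.859 CPM, dendritic cell markers to 6.96 ± 0.465 and 5.06 ± 1.25 CPM, with *Siglech* at 0, and erythroid markers to 2.17 ± 0.679 and 1.59 ± 0.278 CPM. Plasma cell markers summed to 357, 287 and 416 CPM with the scrambled label and to 539, 623 and 616 CPM with the *Pgam* label, nearly all of it *Xbp1*, which was higher, while *Jchain* and *Mzb1* were counted at most 8 times in a library. Their part in the lower *Ikzf3* and *Ikzf2* levels was not tested. Among the called markers, *Cd28*, *Foxp3*, *Ccr7* and *Ighd* passed with each library left out in turn. *Cd8a* was not called without scrambled replicate 1 or *Pgam* replicate 1 (edgeR adjusted p = 0.0989 and 0.1004), and the others were not called without *Pgam* replicate 2, among them *Ighm* (0.102), *Il2ra* (0.0967) and *Il7r* (0.0592).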

How the data were processed

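RNA of 6 samples was sequenced. The authors deposited 1 table of counts per Ensembl gene, estimated with Kallisto, which the submitters' processing notes list together with the GRCm38 build. The Kallisto version, annotation, rounding and strand setting are not given in the sources used here. No column was left out. The test was that of edgeR 4.0.16 under R 4.3.3 (filterByExpr defaults, TMM, robust quasi-likelihood test, two-sided, Benjamini-Hochberg, threshold 0.05). The study's methods name DESeq2, which was an alternative here. The procedure was tested on simulated data, where each tool made more false calls than its threshold allows, DESeq2 the most, so calls just under the threshold are weak. Symbols were found for 52073 genes, and 52125 were in GENCODE M21, the source of positions, lengths and sequences. No libraries agreed within sampling noise (chi-square per degree of freedom at least 6.75). Scrambled replicates 2 and 3 (23.6) and *Pgam* replicates 1 and 3 (18.1) lay farther apart than scrambled replicate 3 and *Pgam* replicate 3 (15.3). The remaining pairs within a group were at 6.75 to 11.3. Some marker genes are not reported here and were taken out of their lists. The members and gene lists were chosen with earlier results of these data known. The genes named were the members, the targets, *Foxp3*, called genes of the lists and a few uncalled ones, nearest tested neighbours, and the 3 genes most alike a called member (mean log2 CPM of at least 1, prior count 2). The 200 kb windows, with *Ormdl3*, *Psmd3*, *Grb10*, *Pmel* and *Dgka*, were added after values were seen. Alternatives were DESeq2 1.42.0, limma-voom (limma 3.58.1), RLE factors, scaling by library size, scaling without ribosomal protein or mitochondrial genes, no filter, a minimum of 10 counts per library, a block for the replicate number, left-out libraries, stricter thresholds, other gene lengths and, for ratios, no pseudocount.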

Additional observations from a re-analysis of the deposited data

How the results depend on the processing

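Of the called members, *Ikzf3* passed with DESeq2, limma-voom, the other scalings and the other filters on low counts, as did *Ikzf2*. The log2 fold changes with 1 library left out ran from -2.81 to -2.18 for *Ikzf3* and from -0.72 to -0.39 for *Ikzf2*, and with the replicate block *Ikzf2* was at -0.59 (adjusted p = 0.0745 in edgeR). *Ikzf1* and *Ikzf4* passed under none of these fits, and *Ikzf5* changed sign among left-out libraries. With the replicate block 1235 genes were called, among them 1 member, 2 corepressor genes, 3 described targets, 0 protein regulators, 2 upstream genes and 3 neighbours. Of 45 called genes named outside the family, 18 lost the call under this block, among them *Zpbp2* (edgeR adjusted p = 0.0660), *Arl5c* (0.0579), *Bcl6* (0.0644), *Tcf7* (0.0574), *S1pr1* (0.0659) and *Ighm* (0.0539). It is not established that equal replicate numbers are paired, and their deviations correlated across genes at 0.0534, -0.0340 and -0.237. An adjusted p under 0.01 left 453 genes and 0 members, and at an adjusted p under 0.05 a bound of 1 on the size of the log2 fold change left 674 genes and 1 member. With 1 library left out, 391 to 3484 genes were called, with 0 to 2 members, 0 to 6 corepressor genes, 2 to 4 described targets, 0 to 4 protein regulators, 0 to 5 upstream genes and 1 to 6 neighbours. Of the upstream genes 5 were called with DESeq2, scaling by library size, scaling without ribosomal protein or mitochondrial genes, or at least 10 counts in every library, where *Il6st* passed (adjusted p = 0.00863, 0.0482, 0.0493 and 0.0299), as it did with limma-voom (0.0141). *Klf2* passed with DESeq2 and limma-voom (adjusted p = 0.0436 and 0.0174). *Crbn*, *Xpa* and *Dtx3l* passed with DESeq2 (adjusted p = 0.0343, 0.0367 and 0.0189) and, like *Zfp688*, with no filter. DESeq2 called 8 corepressor genes and 4 protein regulators, no filter 7 and 4, and at least 10 counts in every library 3 neighbours, since *Grb7* and *Zpbp2* were then not tested. With the longest transcript or merged exons as length, mean levels in CPM per kilobase were 96.0 or 85.8 for *Ikzf1*, 1.84 or 1.47 for *Ikzf2*, 12.9 or 6.79 for *Ikzf3*, 22.5 or 19.3 for *Ikzf4* and 0.742 or 0.574 for *Ikzf5*, as follows from the greater lengths. *Mta3* did not pass with DESeq2 (adjusted p = 0.0512), nor *Smad4* and *Gata2* with limma-voom (adjusted p = 0.0550 and 0.0714). In edgeR, *Mta3* did not pass with no filter (adjusted p = 0.0701), nor *Gata2* with scaling by library size (adjusted p = 0.0505). The cause of the other shifts was not tested. A floor of 3 counts is up to 0.192 CPM in a library, which matters for *Zpbp2*, at 0 to 46 counts.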
